A study of Mus musculus with 6 samples.

Results

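The genes described here encode the subunits of RNA polymerase II, the enzyme that transcribes every protein-coding gene of the nucleus. They were chosen by name, as the 10 genes *Polr2a* to *Polr2j* out of 16018 genes in the deposited table, because *Polr2a* had been seen to be higher in knockout than in wild-type hearts. The question was whether the other 9 subunit genes shared that rise. All 10 passed the filter on low values, a mean of at least 10 normalized counts, as did 16016 genes in all. RNAseq was performed on whole hearts of female mice aged 4 to 5 weeks, 3 of genotype NBCe1-B/C KO (KOb/c) and 3 WT, a different animal for each library. The KOb/c mice lack the B and C variants of the sodium bicarbonate cotransporter NBCe1, encoded by *Slc4a4*, from conception and in every tissue, and keep the kidney variant NBCe1-A, so the heart is not the only organ without the transporter. Both genotypes came from crosses between heterozygotes of a line backcrossed to C57BL/6J. No drug or other treatment is named for either group.

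RNA polymerase II is an assembly of large and small subunits. The products of *Polr2a* and *Polr2b* form the active centre, and the long tail of the *Polr2a* product, the carboxy-terminal domain (CTD), is phosphorylated as transcription starts and proceeds. Around them sit an assembly platform (*Polr2c*, *Polr2j*), a stalk that holds the emerging RNA (*Polr2d*, *Polr2g*), a zinc-binding subunit that takes part in accuracy (*Polr2i*), and subunits that RNA polymerases I and III use as well (*Polr2e*, *Polr2f*, *Polr2h*, *Polr2k*, *Polr2l*). Since every cell type needs the enzyme, *Polr2a* is often used as a reference gene in PCR.

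The values are normalized counts, that is, reads assigned to a gene divided by a factor for the library. The reads on genes ranged from 42619258 to 49100802 in KOb/c and from 41364857 to 42037397 in WT libraries, so the KOb/c libraries were all deeper than the WT ones. The least abundant subunit, *Polr2h*, had at least 195 reads per library, for which counting error alone is 7.16% of the count. The targeted gene, *Slc4a4*, stood at 264, 945 and 269 normalized counts in the KOb/c libraries and at 675, 822 and 789 in the WT libraries, in order of their replicate numbers. Thus, the library labelled KOb/c replicate 2 was above each WT library for the gene that its label says was disrupted, and the members' values are also given without it. Without it, the log2 fold change of *Slc4a4* was -1.51 (adjusted p = 0.0121, limma), beside -0.90 with it (adjusted p = 0.239, limma). A count covers all exons of *Slc4a4*, so the NBCe1 variants cannot be told apart. Of the marker lists for cell types of the heart, the summed levels of cardiomyocyte, endothelial and fibroblast genes were higher in each KOb/c than in each WT library, while those of atrial, mural, macrophage, lymphocyte, adipose and erythroid genes overlapped. The sum of 6 cardiomyocyte markers ran from 2296566 to 2556709 normalized counts in KOb/c and from 1941211 to 2073247 in WT hearts, with 2 of the 6 higher and 2 lower without overlap. The sum of 4 endothelial markers ran from 33192 to 35133 in KOb/c and from 29499 to 31358 in WT hearts (2 of 4 higher without overlap), and that of 4 fibroblast markers from 45766 to 53067 and from 43691 to 45681 (1 of 4). In whole hearts, fewer cells of a type and less RNA per cell cannot be told apart.

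The sequence before the start of a subunit gene is shown for *Polr2a*, which was higher in KOb/c hearts, and for *Polr2c*, which was not. These are the members for which the RefSeq start and the GENCODE M21 start lie within 4 bases of each other. The sequences are from RefSeq on GRCm38.p6, written 5′ to 3′ on the strand of the gene and ending at the base before the first annotated exon. Capitals mark TATAAA (the core of the TATA box), CCAAT (the CCAAT box) and GGGCGG (the core of the GC box).
Polr2a, minus strand, chr11:69758638-69758883: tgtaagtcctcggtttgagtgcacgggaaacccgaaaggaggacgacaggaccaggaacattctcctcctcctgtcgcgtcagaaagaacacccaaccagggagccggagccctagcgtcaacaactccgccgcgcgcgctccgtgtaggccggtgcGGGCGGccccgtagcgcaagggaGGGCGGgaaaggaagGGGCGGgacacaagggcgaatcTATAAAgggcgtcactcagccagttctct
Polr2c, plus strand, chr8:94857200-94857449: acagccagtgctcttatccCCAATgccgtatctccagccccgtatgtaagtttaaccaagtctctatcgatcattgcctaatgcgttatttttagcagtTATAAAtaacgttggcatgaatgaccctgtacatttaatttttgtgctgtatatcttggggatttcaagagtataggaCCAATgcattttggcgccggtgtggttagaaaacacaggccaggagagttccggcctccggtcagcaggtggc
In *Polr2a*, TATAAA began 33 bases before the RefSeq start, behind 3 copies of GGGCGG. In *Polr2c*, TATAAA began 151 bases before the start, between 2 copies of CCAAT. RefSeq windows of 250 bases before to 50 bases after the start were matched for 8 of the 10 members. On either strand, TATAAA was found in 2 of these 8 (*Polr2a* and *Polr2c*) and in 13.6% of 32851 promoters of the same length. GGGCGG was found in 6 of the 8 members and in 35.7% of all promoters, and CCAAT was found in 3 of the 8 and in 37.4% of all. CCGGAAG, a core of ETS factor sites, was found in *Polr2c*, *Polr2f* and *Polr2j* and in 8.86% of all promoters. None of these motifs contains another, and a match is a description of the sequence only.

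Of the 9 other subunit genes, *Polr2b* alone had a mean above WT in KOb/c hearts, and the 8 genes for the smaller subunits had means below WT. None of these 9 differences passed limma, and DESeq2 called 4 of them, all lower and among the smaller subunits. Of all genes given an adjusted p by DESeq2, 13.2% were called, 5.03% as lower. DESeq2 called 0 of the 9 without the library labelled KOb/c replicate 2, and 0 after the length and GC correction described below. *Polr2a* was 1.55 times its WT level and *Polr2b* 1.16 times, whereas the smaller subunits ranged from 0.716 times for *Polr2h* to 0.895 times for *Polr2c*. The KOb/c and WT libraries did not overlap for 2 members that were higher and 7 that were lower, and they overlapped for *Polr2e*. Over all 16016 genes tested, 15.6% were higher and 14.6% were lower without overlap, or 30.2% in either direction. The median log2 fold change of the 9 genes other than *Polr2a* was -0.26, beside -0.0043 over all genes, of which 49.2% had a value above 0 and 50.8% one below 0. The members were named because of *Polr2a* in this same contrast, so these counts are a description.

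**Figure D1:**
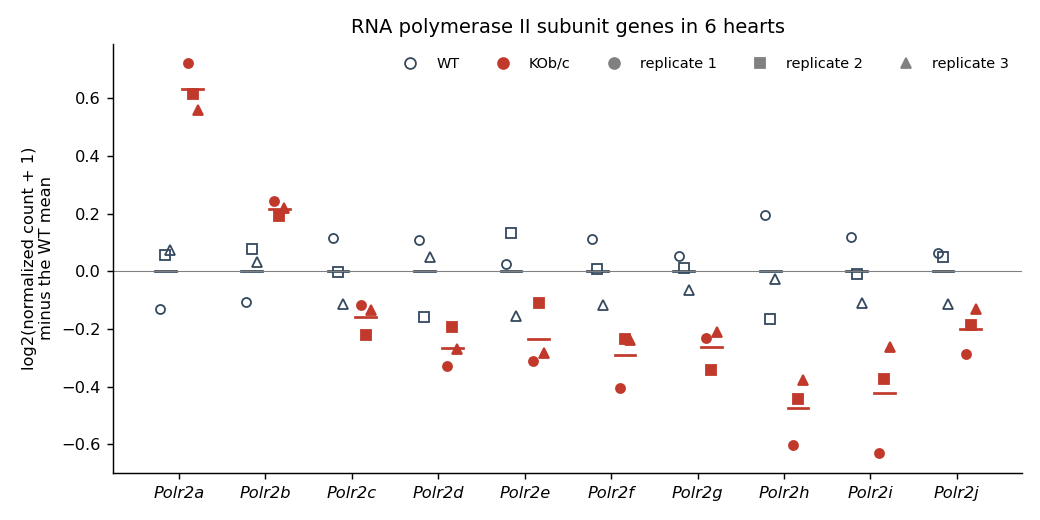
Log2(normalized count + 1) of each RNA polymerase II subunit gene minus its WT mean (vertical axis), for the 10 genes (horizontal axis) in 3 WT hearts (open symbols) and 3 KOb/c hearts (filled symbols). Symbol shapes give the replicate number and bars the group means. The KOb/c symbols sit above the WT symbols for *Polr2a* and *Polr2b*, below them for 7 genes, and among them for *Polr2e*.

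*Polr2a* (ENSMUSG00000005198), on chromosome 11 of GRCm38 from 69733997 to 69758637 in GENCODE M21, encodes the largest subunit, which carries the catalytic site and the CTD. Its normalized count was 2504, 2329 and 2238 in KOb/c hearts 1 to 3 and 1387, 1581 and 1598 in WT hearts 1 to 3. The lowest KOb/c library was 639 normalized counts above the highest WT library. The log2 fold change was 0.63, and no p or confidence interval is given because this contrast chose the gene. The library labelled KOb/c replicate 2, in which *Slc4a4* was above the WT libraries, lay between the other two KOb/c libraries. Without it, the log2 fold change was 0.64.

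*Polr2b* (ENSMUSG00000029250; chromosome 5, 77310147 to 77349324) encodes the second subunit of the active centre. Its normalized count was 3042, 2933 and 2987 in KOb/c and 2383, 2709 and 2625 in WT hearts. The KOb/c libraries lay close together, all above the WT libraries, with a gap of 224 normalized counts between the nearest libraries. The log2 fold change of 0.22 (95% confidence interval 0.06 to 0.37) did not pass the test (adjusted p = 0.114, limma; 0.064, DESeq2). Its locus shares 85 bases with *Igfbp7* on the opposite strand, which was lower in KOb/c hearts (log2 fold change -0.27), and the treatment of strand in the counting is not given in the sources used here. The ratio of the *Polr2a* count to the *Polr2b* count was 0.823, 0.794 and 0.749 in KOb/c and 0.582, 0.584 and 0.609 in WT hearts. This ratio holds the values of *Polr2a*, whose rise chose it, so it is no separate result and was not tested.

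The genes of the assembly platform, on which the complex is built, did not pass limma or DESeq2. *Polr2c* (ENSMUSG00000031783; chromosome 8, 94857450 to 94873535) was listed at 2814.6, 2614.4 and 2776.7 normalized counts in KOb/c and at 3305.8, 3041.6 and 2820.2 in WT hearts. Its groups were separated by 5.60 normalized counts only, between KOb/c replicate 1 and WT replicate 3. The log2 fold change was -0.16 (95% confidence interval -0.33 to 0.01, adjusted p = 0.240, limma; 0.229, DESeq2). Its annotated span overlaps *Dok4* on the opposite strand over 9708 bases, introns included, and *Dok4* had a log2 fold change of -0.29. *Polr2j* (ENSMUSG00000039771; chromosome 5, 136116631 to 136122947), the partner of *Polr2c* in the platform, stood at 828, 887 and 922 in KOb/c and at 1055, 1045 and 933 in WT hearts. Here again the nearest libraries were close, KOb/c replicate 3 and WT replicate 3, and the log2 fold change was -0.20 (adjusted p = 0.189, limma; 0.187, DESeq2).

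Of the stalk genes, neither passed limma, and *Polr2g* passed DESeq2. *Polr2d* (ENSMUSG00000024258; chromosome 18, 31789159 to 31796701) was at 1010, 1111 and 1053 normalized counts in KOb/c and at 1371, 1139 and 1314 in WT hearts. *Polr2g* (ENSMUSG00000071662; chromosome 19, 8793127 to 8798577) was at 1355, 1254 and 1372 in KOb/c and at 1650, 1603 and 1519 in WT hearts. For both genes each KOb/c library was below each WT library, by a margin of 28.0 normalized counts for *Polr2d* and 147 for *Polr2g*. The log2 fold changes were -0.26 for *Polr2d* (adjusted p = 0.125, limma; 0.069, DESeq2) and -0.26 for *Polr2g* (adjusted p = 0.092, limma; 0.036, DESeq2).

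Among the subunits shared with RNA polymerases I and III, *Polr2h* had the lowest count and the lowest log2 fold change. *Polr2h* (ENSMUSG00000021018; chromosome 16, 20717665 to 20722267) was at 194, 216 and 226 normalized counts in KOb/c and at 337, 262 and 289 in WT hearts. All KOb/c libraries were below all WT libraries, and WT replicate 1 stood highest. The log2 fold change was -0.47 (95% confidence interval -0.77 to -0.18, adjusted p = 0.095, limma; 0.036, DESeq2). *Polr2f* (ENSMUSG00000033020; chromosome 15, 79141009 to 79151774) was at 1205, 1355 and 1352 in KOb/c and at 1722, 1603 and 1468 in WT hearts. It did not overlap between the groups either, with a log2 fold change of -0.29 (adjusted p = 0.101, limma; 0.036, DESeq2). *Polr2e* (ENSMUSG00000004667; chromosome 10, 80035949 to 80039795) was at 2731, 3140 and 2785 in KOb/c and at 3448, 3716 and 3044 in WT hearts. It is the only member of the 10 whose groups overlapped, as the library labelled KOb/c replicate 2 exceeded WT replicate 3, and its log2 fold change was -0.24 (adjusted p = 0.163, limma).

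The remaining shared subunits, *Polr2k* and *Polr2l*, are part of the enzyme but not of the 10 genes chosen by name. *Polr2k* was at 629, 683 and 741 normalized counts in KOb/c and at 888, 762 and 843 in WT hearts (log2 fold change -0.28). *Polr2l* was at 1466, 1433 and 1492 in KOb/c and at 1708, 1677 and 1701 in WT hearts (log2 fold change -0.21). Both were lower without overlap. Thus, 9 of the 10 smaller subunits of the enzyme were lower without overlap, beside 14.6% of all genes. After the length and GC correction described below, *Polr2k* was at -0.08 and *Polr2l* at -0.09, both with overlap. Of the 10 smaller subunits, 3 were then lower without overlap, beside 10% of all genes. *Polr2m* encodes Gdown1, a protein that binds the finished enzyme and keeps it from initiation factors. It was at 14467, 13127 and 13979 in KOb/c and at 13866, 13534 and 12995 in WT hearts, with overlap and a log2 fold change of 0.04, which became -0.03 when the libraries were rescaled to the same total.

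*Polr2i* (ENSMUSG00000019738; chromosome 7, 30231948 to 30233390), for the subunit that takes part in accuracy, was at 412, 493 and 532 normalized counts in KOb/c and at 694, 635 and 592 in WT hearts. Each KOb/c library was below each WT library. The log2 fold change was -0.42 (95% confidence interval -0.69 to -0.16, adjusted p = 0.095, limma; 0.024, DESeq2). The gene starts head to head with *Tbcb* on the opposite strand, with which it shares 325 bases, and *Tbcb* had a log2 fold change of -0.27.

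Thus, 0 of the 9 genes other than *Polr2a* passed an adjusted threshold of 0.05 by limma, which called 0 of all 16016 genes (percentage called: 0), while 8 of the 9 and 3764 of all genes (23.5%) had an unadjusted p under 0.05. The quasi-likelihood test of edgeR called 0 genes as well, with 3837 (24%) at an unadjusted p under 0.05. On the reads recovered from the table, the Wald test of DESeq2 called 4 of the 9 (*Polr2f*, *Polr2g*, *Polr2h* and *Polr2i*), all lower. It gave an adjusted p to 11979 of the 16016 genes and called 13.2% of these, 8.22% higher and 5.03% lower. Without the library labelled KOb/c replicate 2, DESeq2 called 0 of the 9 and 10.8% of the 11048 genes given an adjusted p (3.66% lower). The log2 fold change was then 0.23 for *Polr2b* and between -0.49 (*Polr2h*) and -0.13 (*Polr2c*) for the smaller members. Exact two-sided permutation tests of single genes gave p = 0.1 for each of the 9 except *Polr2e* (p = 0.2), and a comparison of 3 hearts with 3 cannot give a p below 0.1. Groups that do not overlap cannot come to overlap when a library is left out, so among the members only *Polr2e* could change. The number of members lower without overlap was 7 or 8 when any 1 library was left out. With 1 library fewer, 18.2% to 21.7% of all genes were higher and 17.8% to 21.3% were lower without overlap. The count was 8 without KOb/c replicate 2 or without WT replicate 3, the libraries between which *Polr2e* overlapped.

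Set beside each other in each library, the large and the small subunits lay apart in the KOb/c hearts. *Polr2b*, as log2(normalized count + 1) minus the WT mean, was at 0.24, 0.19 and 0.22 in the KOb/c hearts and at -0.11, 0.08 and 0.03 in the WT hearts, by replicate number. On the same scale, the median of the 8 smaller members was -0.32, -0.23 and -0.25 in KOb/c and 0.11, 0.00 and -0.11 in WT hearts. All 8 were below their WT mean in each KOb/c library, as were 4 of the 8 in WT replicate 2 and 7 in WT replicate 3. In WT replicate 3 the order was that of the KOb/c hearts, with values nearer to the WT mean (0.03 for *Polr2b* and -0.11 for the median). In WT replicate 1 the order was the opposite, with *Polr2b* below and the smaller subunits above their WT means.

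The members also differ in length, and length moved with the log2 fold change over all genes. The main annotated transcript of *Polr2a* has 6740 nucleotides and that of *Polr2b* 4145, while those of the 8 smaller members have 646 (*Polr2j*) to 1580 (*Polr2c*). Among all genes divided into 10 groups of equal size by the length of the main transcript, the median log2 fold change went from -0.21 in the shortest group to 0.23 in the longest. Across genes, which are not independent replicates, Spearman's rho between log2 fold change and this length was 0.47. *Polr2a*, at 0.63, lay above the 75th percentile of the longest group, which was 0.35. *Polr2b*, at 0.22, lay just above the 75th percentile of its group, which ranges from 3973 to 4751 nucleotides and has a median of 0.09 and a 75th percentile of 0.21. The shortest group, up to 1023 nucleotides, has a median of -0.21 and a 25th percentile of -0.35. *Polr2d*, *Polr2f* and *Polr2g* lay between these values, *Polr2j* lay just above the median, and *Polr2h* and *Polr2i* lay below the 25th percentile. *Polr2c* and *Polr2e* belong to the next groups and lay between the 25th percentile and the median of theirs.

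**Figure D2:**
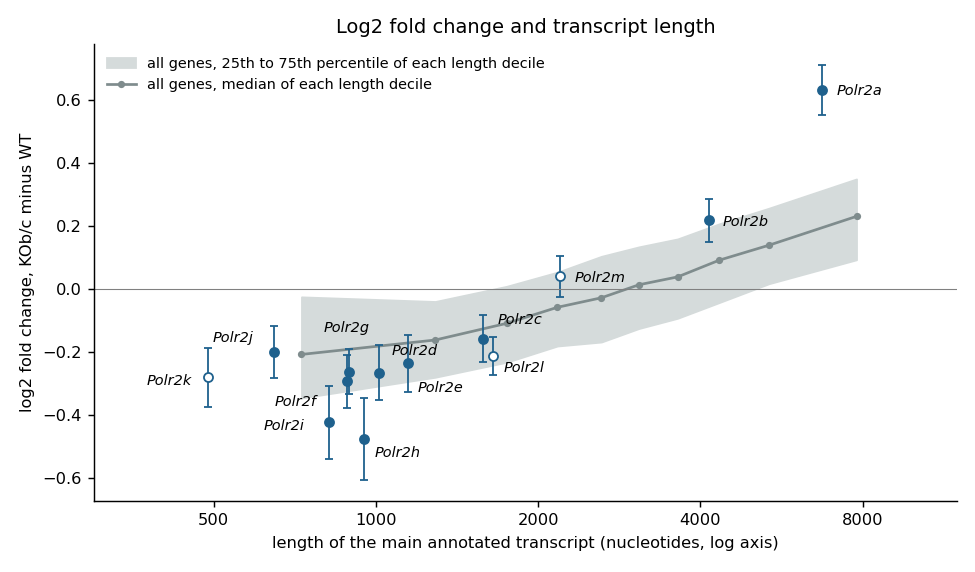
Log2 fold change between KOb/c and WT hearts (vertical axis, with standard error) against the length of the main annotated transcript in nucleotides (log axis) for the 10 members (filled) and *Polr2k*, *Polr2l* and *Polr2m* (open). The grey line and band are the median and the 25th to 75th percentile of all genes in 10 groups of transcript length. The line runs from -0.21 to 0.23, and *Polr2a* at 0.63 stands above the band.

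When the dependence on transcript length and GC content was fitted over all genes and subtracted, *Polr2a* and *Polr2b* stayed above 0, the smaller members stayed below it, and each member except *Polr2c* came nearer to 0. *Polr2a* was then at a log2 fold change of 0.46 and *Polr2b* at 0.18. The 8 smaller members ranged from -0.30 (*Polr2h*) to -0.01 (*Polr2j*), and the median of the 9 other than *Polr2a* was -0.15. With the main transcript in place of the longest one, that median was -0.09, *Polr2c* was at -0.02, and *Polr2j* was at 0.02, above 0. After the correction, 2 members remained higher without overlap, *Polr2a* and *Polr2b*, and 3 were lower without overlap, *Polr2f*, *Polr2h* and *Polr2i*, where 11.2% of all genes were higher and 10% lower. DESeq2 with the correction called 0 of the 9 and 2.44% of the 14152 genes given an adjusted p (1.25% higher, 1.19% lower). What part transcript length, library depth and the make-up of the tissue have in the difference between large and small subunits was not tested.

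The largest subunits of the other nuclear polymerases are long transcripts too. *Polr1a*, the largest subunit of RNA polymerase I, which makes ribosomal RNA, was at 3306, 2838 and 2678 normalized counts in KOb/c and at 2324, 2568 and 2159 in WT hearts. *Polr3a*, the largest subunit of RNA polymerase III, which makes transfer RNA, was at 784, 688 and 709 in KOb/c and at 553, 610 and 563 in WT hearts. Both were higher without overlap, with log2 fold changes of 0.32 (adjusted p = 0.107, limma; 0.028, DESeq2) and 0.34 (adjusted p = 0.089, limma; 0.032, DESeq2). Their partners in the active centre had log2 fold changes of 0.15 (*Polr1b*, higher without overlap) and 0.09 (*Polr3b*, with overlap). After the length and GC correction, *Polr1a* was at 0.09 and *Polr3a* at 0.25, beside 0.46 for *Polr2a*, and neither was called (adjusted p = 0.762 and 0.253, DESeq2). Without the library labelled KOb/c replicate 2, DESeq2 did not call *Polr1a* (adjusted p = 0.0603) and called *Polr3a* (adjusted p = 0.0421).

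Of the smaller subunits of RNA polymerase I, *Polr1e* had a log2 fold change of -0.35 (adjusted p = 0.083, limma; 0.012, DESeq2) and *Znrd1* one of -0.33, both lower without overlap. The 2 of its 6 genes that were higher without overlap were the large subunits *Polr1a* and *Polr1b*. After the length and GC correction, *Polr1e* was at -0.31 and was still called by DESeq2 (adjusted p = 0.049) but not by limma (adjusted p = 0.244). *Polr1c* and *Polr1d*, which RNA polymerases I and III share as their platform in the place of *Polr2c* and *Polr2j*, were both lower without overlap, at -0.24 and -0.33, and DESeq2 called *Polr1d* (adjusted p = 0.00209), though not after the length and GC correction (log2 fold change -0.19, adjusted p = 0.216). Of the 11 genes of RNA polymerase III, 2 were higher and 3 lower without overlap, with a median of -0.06. Over all genes, 15.6% were higher and 14.6% lower without overlap. *Polr3d*, at -0.18, and *Crcp*, at -0.17, were the lowest by their t statistic, and *Polr3c* was at 0.10.

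**Figure D3:**
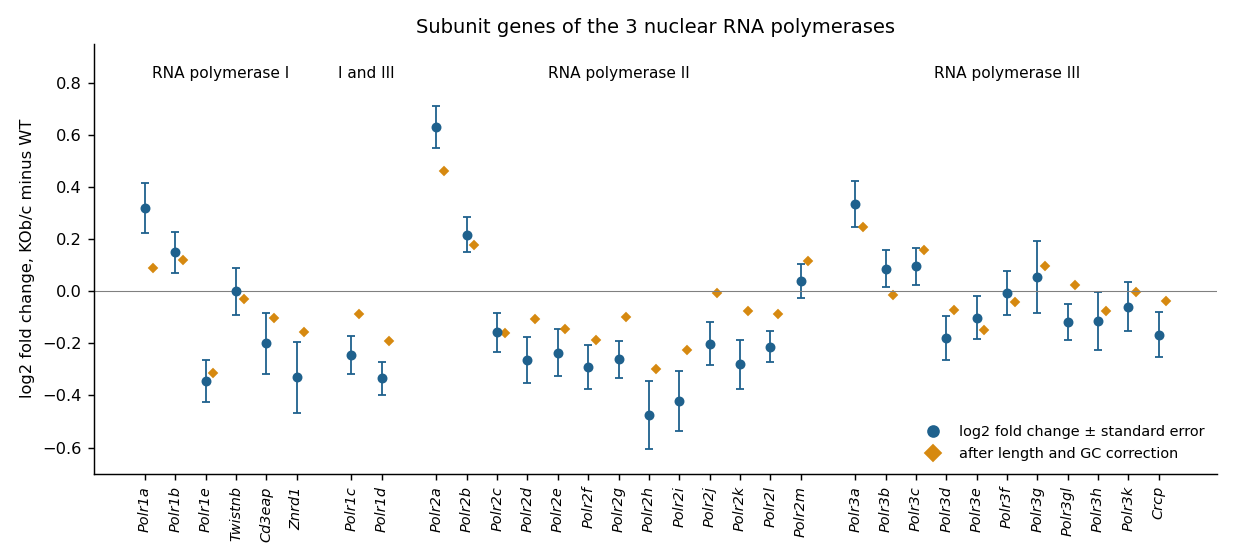
Log2 fold change between KOb/c and WT hearts (vertical axis; circles, with standard error) and the same after correction for transcript length and GC content (diamonds) for the subunit genes of RNA polymerases I, II and III (horizontal axis). The largest subunits *Polr1a*, *Polr2a* and *Polr3a* stand at 0.32, 0.63 and 0.34, and the smaller subunits of RNA polymerase II lie below 0.

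Genes that work with RNA polymerase II were described by lists of their roles. Since limma called 0 genes, the counts are of genes whose groups did not overlap (15.6% of all genes higher, 14.6% lower) and of DESeq2 calls (8.22% higher, 5.03% lower). Among 18 genes of the general transcription factors, which bring the enzyme to the promoter, 2 were higher and 7 lower without overlap, DESeq2 called 0, and the median log2 fold change was -0.11. *Gtf2b*, which links the enzyme to the promoter-bound factors, was at -0.25, and *Gtf2h5*, a small subunit of TFIIH, at -0.24, while *Gtf2a1* was at 0.20 and *Gtf2h3* at 0.05 (-0.03 when the libraries were rescaled to the same total). Among 13 TAF genes of TFIID, 2 were higher and 2 lower without overlap, with a median of -0.05 and 0 DESeq2 calls. The largest TAF, *Taf1*, was at 0.25 and *Taf3* at 0.25, while *Taf13* was at -0.20 and *Taf10* at -0.14.

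In Mediator, the complex that relays signals from enhancers to the enzyme, 8 of 32 genes were higher and 10 lower without overlap, with a median of -0.05. DESeq2 called 2 higher and 1 lower. *Med13l* and *Med13*, of the kinase module, were at 0.48 (adjusted p = 0.084, limma; 0.0045, DESeq2) and 0.39 (0.087 and 0.00897), and *Med20* and *Med28* at -0.31 (0.088 and 0.040) and -0.24 (0.097 and 0.057). With length and GC corrected for, the calls of *Med13* and *Med13l* were lost (adjusted p = 0.407 and 0.241, DESeq2), and *Med20* and *Med28* had adjusted p = 0.00905 and 0.0457 (DESeq2). The correction used the longest transcript, which has 5680 nucleotides for *Med20*, while its main transcript has 2054. The log2 fold change of *Med20* was -0.45 after this correction and -0.24 after the one with main transcripts, and that of *Med28* was -0.30 and -0.33. Among 23 genes of pausing and elongation, 8 were higher and 4 lower without overlap, with a median of 0.06. *Supt6*, a histone chaperone that travels with the enzyme, was at 0.34 (adjusted p = 0.00543, DESeq2) and *Cdc73*, of the PAF complex, at 0.22, whereas *Cdk9*, the kinase that releases paused polymerase, was at -0.24 and *Supt4a* at -0.16. After the length and GC correction, *Cdc73* was at -0.01 and *Supt4a* at 0.01. DESeq2 called 3 genes of this list, all higher, and 0 after the correction.

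The enzymes and readers of the CTD act on the tail of the *Polr2a* product itself. Of 17 such genes, 8 were higher and 2 lower without overlap, with a median of 0.18. *Rprd2*, a CTD-binding protein, was at 0.39 (adjusted p = 0.014, DESeq2) and *Ctdsp2*, a CTD phosphatase, at 0.21. *Ssu72*, another CTD phosphatase, was at -0.27 (adjusted p = 0.017, DESeq2). DESeq2 called 1 gene of the list higher and 2 lower, and 1 after the correction, when *Rprd2* and *Ssu72* were no longer called (adjusted p = 0.429 and 0.475, DESeq2). Among 10 genes for the assembly and nuclear import of the enzyme, 1 was higher and 5 were lower without overlap, with a median of -0.08. The one that was higher, *Rpap1*, was at 1089, 1032 and 1022 normalized counts in KOb/c and at 843, 827 and 790 in WT hearts, with a log2 fold change of 0.35 (adjusted p = 0.082, limma; 0.00665, DESeq2). After the correction it was at 0.26 and not called (adjusted p = 0.134, DESeq2). *Slc7a6os* was at -0.24, *Gpn2* at -0.22 and *Uri1*, with overlap, at 0.10.

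Levels can be set side by side between genes only per length of transcript. In WT hearts, the mean normalized count per kilobase (kb) of main transcript was highest for *Polr2e*, at 2964 ± 295 (SD, n = 3), followed by *Polr2c* (1934 ± 154), *Polr2f* (1805 ± 143), *Polr2g* (1787 ± 74.8), *Polr2j* (1565 ± 105) and *Polr2d* (1256 ± 119). *Polr2c*, *Polr2f* and *Polr2g*, neighbours in this order, did not differ from one another beyond the larger of their SDs. Lower levels per kb were found for *Polr2i* (782 ± 62.3), *Polr2b* (621 ± 40.9), *Polr2h* (311 ± 40.1) and *Polr2a* (226 ± 17.4), so that the largest subunit had the lowest transcript level per kb of the 10. In KOb/c hearts, *Polr2a* stood at 350 ± 20.1 and *Polr2h* at 223 ± 17.6 per kb, in the reverse order to WT hearts. That order holds the values of *Polr2a*, whose rise chose the genes, so it is no separate result and was not tested. *Polr2b*, at 721 ± 13.2, stood above *Polr2i*, at 585 ± 74.9, also in the reverse order. These levels depend on the annotated transcript chosen for each gene. They were not corrected for the dependence of the log2 fold change on length.

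**Figure D4:**
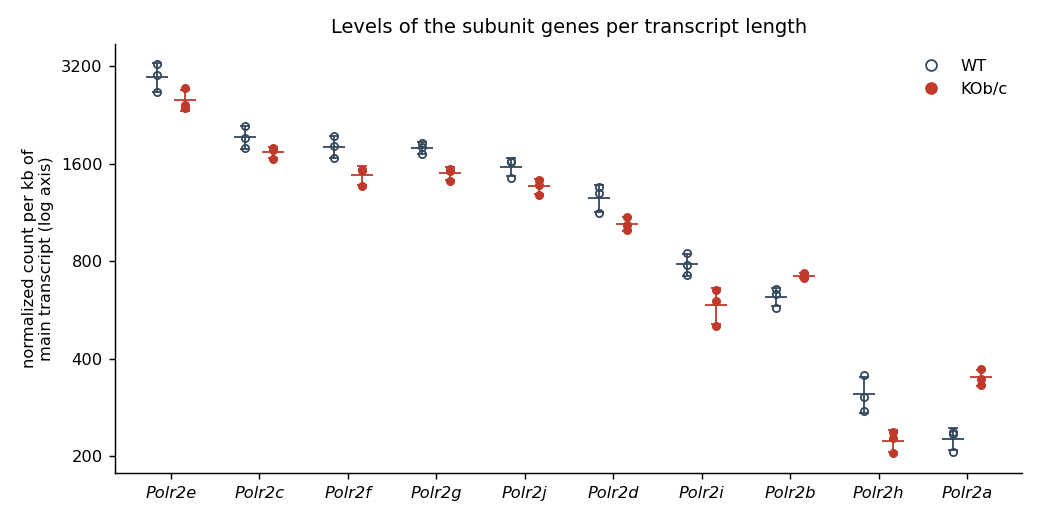
Normalized count per kb of main transcript (log axis) for the 10 subunit genes, ordered by their WT mean, in 3 WT (open) and 3 KOb/c hearts (filled), with means and SD. *Polr2a* is lowest in WT hearts at 226 per kb and lies above *Polr2h* in KOb/c hearts, at 350 against 223. This order holds the values of *Polr2a*, whose rise chose the genes.

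The genes whose pattern was most like that of *Polr2a* were named by Pearson's correlation of log2(normalized count + 1) over the 6 libraries, which share the group difference. They were *E330009J07Rik*, *Atp1b2*, *Mmrn2*, *Synrg* and *Ubqln2*, each with r between 0.995 and 0.996. Their log2 fold changes, from 0.26 (*Atp1b2*) to 0.45 (*Synrg*), were all below that of *Polr2a*. *Polr2b* had r = 0.954 and stood at place 293 in this order, while the 8 smaller members had r from -0.965 (*Polr2h*) to -0.763 (*Polr2e*). *Polr2m* had r = 0.341.

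The study used *Gapdh* and *Polr2a* together as control genes when it measured the bicarbonate transporter *Slc4a7* (NBCn1) by PCR, and the same reference can be formed from the RNAseq values. The PCR itself was not analysed here. *Gapdh*, a glycolytic enzyme gene, had a log2 fold change of -0.05 with overlapping groups, and of 0.02 without the library labelled KOb/c replicate 2. The mean log2 level of *Gapdh* and *Polr2a* was 0.42, 0.22 and 0.24 above its WT mean in KOb/c replicates 1, 2 and 3, and between -0.04 and 0.04 of it in WT hearts. The reference was therefore 0.29 higher on the log2 scale in KOb/c hearts.

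As deposited, *Slc4a7* had a log2 fold change of 0.38 and was higher without overlap (adjusted p = 0.136, limma; 0.049, DESeq2). It was at 0.24 without KOb/c replicate 1, at 0.49 without the library labelled KOb/c replicate 2, and at 0.19 after the length and GC correction, when DESeq2 no longer called it (adjusted p = 0.490). Against *Gapdh* alone, the log2 difference was 0.43 ± 0.14 (pooled SD, n = 3 per group), again without overlap. Against the mean of *Gapdh* and *Polr2a*, it was 0.09 ± 0.12, within the spread between hearts, and the groups overlapped. With 1 library left out, this difference lay between 0.0077 and 0.16. With another subunit in the place of *Polr2a*, *Slc4a7* was higher by 0.30 (*Polr2b*) to 0.64 (*Polr2h*), in each case without overlap. The differences follow by arithmetic from the values of *Polr2a*, whose contrast chose it, and they were not tested. They were formed from values without the length and GC correction. With it, the log2 fold change was 0.19 for *Slc4a7*, -0.02 for *Gapdh* and 0.46 for *Polr2a*. It was 0.18 for *Polr2b* and -0.30 for *Polr2h*, so the subunits lay nearer to each other than without it.

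**Figure D5:**
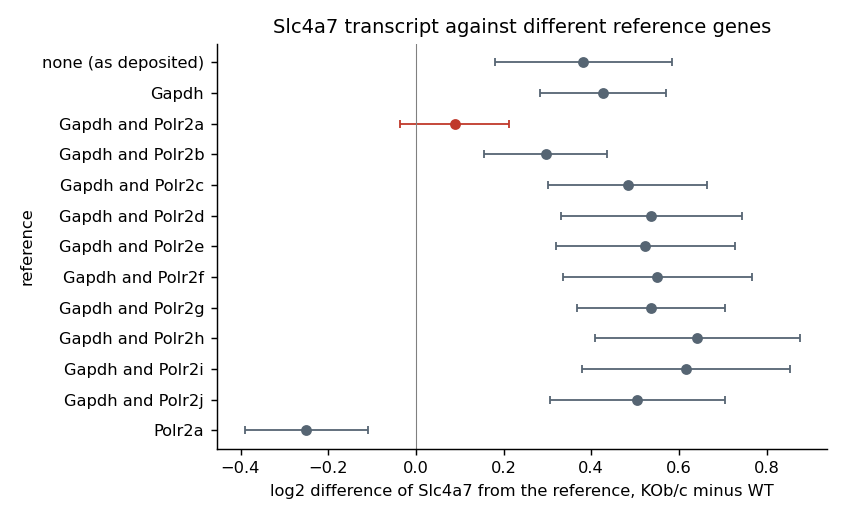
Log2 difference between KOb/c and WT hearts in *Slc4a7* (horizontal axis, points with pooled SD) relative to the reference named on the vertical axis. Against *Gapdh* and *Polr2a* (red) the difference is 0.09, with any other subunit in the place of *Polr2a* it lies above 0 without overlap, and against *Polr2a* alone it is -0.25.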

How the data were processed

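The authors deposited 1 table of normalized counts for 16018 genes in 6 libraries, a signal per gene made by dividing reads by a size factor for each library and not scaled to length. The submitters' processing notes name Trimmomatic 0.36, STAR 2.5.2b, featureCounts of Subread 1.5.2, DESeq2 and the genome build GRCm38. The annotation, the treatment of strand and that of reads shared between genes are not given in the sources used here. The labels gave each library's genotype and replicate number, and 0 columns were left unmatched.

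In each library, 100% of the values came out as whole reads (within 0.01 reads). No libraries were duplicates, since at most 1.4% of genes had the same read count in any pair. Positions, symbols and transcripts are from GENCODE M21, and the main transcript is the one ranked first by APPRIS, then CCDS, then length. Promoters are from RefSeq (GRCm38.p6).

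Log2(normalized count + 1) was compared with limma 3.58.1 (R 4.3.3), with a variance trend, two-sided, Benjamini-Hochberg adjustment over 16016 genes and a threshold of 0.05. The pseudocount of 1 understates the change of low genes. The recovered reads were tested with the Wald test of DESeq2 1.42.0 and the quasi-likelihood test of edgeR 4.0.16. Percentages called by DESeq2 are of the genes to which it gave an adjusted p, a number that differed between its fits. All were tested on simulated data. For the length and GC correction, splines (5 degrees of freedom each) in the log2 length of the longest transcript and its GC content were fitted to the deviations of every library from the gene means and subtracted.

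The members and lists were chosen with earlier results of these data known. The genes named beyond them are, in each list, the 2 with the highest and the 2 with the lowest t statistic, the targeted gene, the PCR genes, and the 5 most correlated with *Polr2a*. Some genes that meet this rule are not reported here. Alternatives used a pseudocount of 0.5 or 5, all genes or those with a mean of 50 or more, equal library totals or quantiles, sample quality weights, no variance trend, a replicate block, or 5 of the 6 libraries. DESeq2 without KOb/c replicate 2, and the length and GC correction with main transcripts or with the replicate block, were added after seeing the data.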

Additional observations from a re-analysis of the deposited data

How the results depend on the processing

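Of 220 recomputed values for the 10 subunit genes, 211 were classed as the same as in the main fit. Of the others, 4 passed the threshold where the main fit did not, and 1 was reversed. A further 4, all of *Polr2a* after the length and GC correction, kept their direction at a smaller size. For the 9 other genes, a value with the same direction and no call was classed as the same whatever its size. After the length and GC correction, each of these 9 except *Polr2c* came nearer to 0. *Polr2g* went from -0.26 to -0.097 and *Polr2j* from -0.20 to -0.006, and both were classed as the same. The number of all genes past the adjusted threshold, 0 by limma, was between 0 and 3 with a library left out. It was 1587 with DESeq2, 345 with DESeq2 after the length and GC correction, and 1195 with DESeq2 without the library labelled KOb/c replicate 2. Of the 9 subunits other than *Polr2a*, DESeq2 called 4, and 0 in both of the other DESeq2 fits. Their median log2 fold change was -0.15 after the length and GC correction (in limma, in DESeq2 and with the replicate block) and -0.093 with main transcripts. *Polr2a* stayed between 0.45 and 0.67 over all 22 alternatives and *Polr2b* between 0.14 and 0.26.

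Directions were reversed for *Polr2j* (0.018 after the correction with main transcripts), for *Polr2m* and *Gtf2h3* (-0.032 and -0.027 when rescaled to the same total) and for *Gapdh*. *Gapdh* was between -0.127 and 0.020 with 1 library left out in limma, 0.023 in DESeq2 without KOb/c replicate 2, and 0.092 after the correction with main transcripts. After the correction, *Supt4a* was at 0.0070 (in limma, in DESeq2 and with the replicate block; 0.021 with main transcripts) and *Cdc73* at -0.015 in the same 3 fits (-0.025 with main transcripts). None of these passed the threshold, and the cause was not tested.

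Whether the replicate numbers pair the libraries cannot be settled with 3 libraries per group. The correlations of same-numbered deviations were 0.227, 0.072 and -0.029. Those of different-numbered deviations ran from -0.183 to 0.155. With the replicate block, 0 genes passed the adjusted threshold and 3924 had an unadjusted p under 0.05, and the adjusted p of *Polr2b* was 0.138. With 3 hearts per group, exact tests of single genes cannot go below p = 0.1.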
